A study of Mus musculus with 5 samples.

Results

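The cells described here are fibroblasts of the mouse penis and of the embryonic limb that carry RNA of *Pdgfra*, the PDGF receptor alpha of connective tissue cells. Cells were taken by their counts of unique molecular identifiers (UMIs, one per captured RNA molecule). A penis cell had to hold 500 to 6000 detected genes and at most 5% mitochondrial UMIs, and a limb cell 100 to 9000 genes and at most 10%. Each member had at least 1 UMI of *Pdgfra* and at least 1 of *Dcn* or *Lum*, the matrix proteoglycans decorin and lumican. No member had a UMI of *Col2a1* (cartilage), *Cdh1* (epithelium), *Cdh5* (endothelium), *Sox10* (glia), *Myod1* (muscle) or *Top2a* (dividing cells). Members were thus chosen by their own measured UMIs. The rule gave 13855 members of the 69434 cells that passed the limits, out of 84440 barcodes in the series. The 3 penis libraries held 2336, 2436 and 1959 members, the forelimb library 3813 and the hindlimb library 3311. Members made up 34.3, 34.3 and 34.2% of the cells that passed in the penis libraries. The share was 14.7% in forelimb cells (95% exact binomial interval 14.3 to 15.2) and 13.8% in hindlimb cells (13.4 to 14.3), intervals that cover counting error only.

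The penis libraries came from males at postnatal day 6, 3 mice of 2 litters, with the prepuce removed so that the glans was kept. The forelimb and hindlimb libraries came from embryos at embryonic day 15, with 6 male embryos named in the study's methods. The labels give the strain of all samples as C57BL/6N, and the methods give that of the study's mice as C57BL/6J. No animal was treated or mutant, and the labels do not tie a penis library to a mouse. Tissue and age, as well as the pooling of animals, cannot be told apart in this design, so each difference below is one between these P6 penis and E15 limb libraries.

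Fibroblasts of loose connective tissue build and turn over the matrix around vessels, nerves, muscle and epithelium. They take their positional identity from homeobox and T-box transcription factors that were set in the early bud. The penis and the hindlimb arise from neighbouring mesoderm and share several of these factors. The comparison addresses which genes separate the connective tissue of the P6 penis from that of the E15 limb.

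The members were set beside the other cells of the same tissue in markers the rule did not use. All 12 of the other fibroblast markers examined (*Col1a1*, *Col1a2*, *Col3a1*, *Col5a2*, *Col6a1*, *Col6a2*, *Twist1*, *Prrx1*, *Fbln1*, *Mfap2*, *Il11ra1* and *Cdh11*) were at a higher level in the members than in the other cells of the same tissue (in CPM, the UMIs of a gene per 1000000 UMIs of a sum), by 1.28 to 2.29 times in the penis and 1.45 to 1.89 times in the limbs. The other cells include much mesenchyme that the rule passed over. The paper lists many of these markers for mesenchyme, so they cannot tell fibroblasts from less differentiated mesenchyme or skeletal lineages. On average per library, 30.5% of penis and 19.9% of limb members had a *Sox9* UMI, and 6.54 and 11.4% a *Runx2* UMI. Members held a median of 10904, 10342 and 9503 UMIs per penis library, against 5357 (forelimb) and 6038 (hindlimb), so that 1 UMI of *Pdgfra* stands for a smaller part of the RNA of a penis member. Summed over members, the libraries held 19456132 to 26357453 UMIs. Libraries shared at most 3 member barcodes with each other.

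The genes of the rule are given as a description. *Pdgfra* stood at 241, 265 and 276 CPM in the penis members against 308 (forelimb) and 292 (hindlimb). *Dcn* stood at 5260, 4888 and 5089 CPM in the penis against 1671 and 1553 in the limbs, and *Lum* at 472, 447 and 451 against 779 and 697. A cell at the edge of the rule had a single *Pdgfra* UMI, as did 32.5 to 35.6% of penis members, 52.2% of forelimb members and 49.2% of hindlimb members. The exclusions weighed unequally. Before them, 3068, 3262 and 2533 penis cells had *Pdgfra* and *Dcn* or *Lum*, against 7943 forelimb and 7569 hindlimb cells. *Col2a1* alone or with others left out 278, 313 and 185 penis cells but 2072 forelimb and 2555 hindlimb cells, and *Top2a* left out 382, 418 and 323 against 2630 and 2519.

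The UMIs of the members were summed per library, and the 3 penis sums were compared with the 2 limb sums by edgeR's quasi-likelihood test. A gene is called higher or lower in the penis at an adjusted p (Benjamini-Hochberg over all genes tested) under 0.01 and a log2 fold-change beyond 1. Of 18497 genes tested, 2121 were higher in the penis (11.5%) and 2057 were lower (11.1%), and 739 and 793 of these differed by over 2 on the log2 scale. The libraries of the 2 tissues did not overlap for any called gene, but all penis libraries lay above both limb libraries in 41.2% of the genes tested and below both in 36.9%, so a lack of overlap sets few genes apart. The median log2 fold-change over all genes was 0.02. Sums correlated at 0.99 within each tissue and at 0.91 to 0.92 between tissues, in log CPM across genes, which are not independent replicates.

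**Figure D1:**
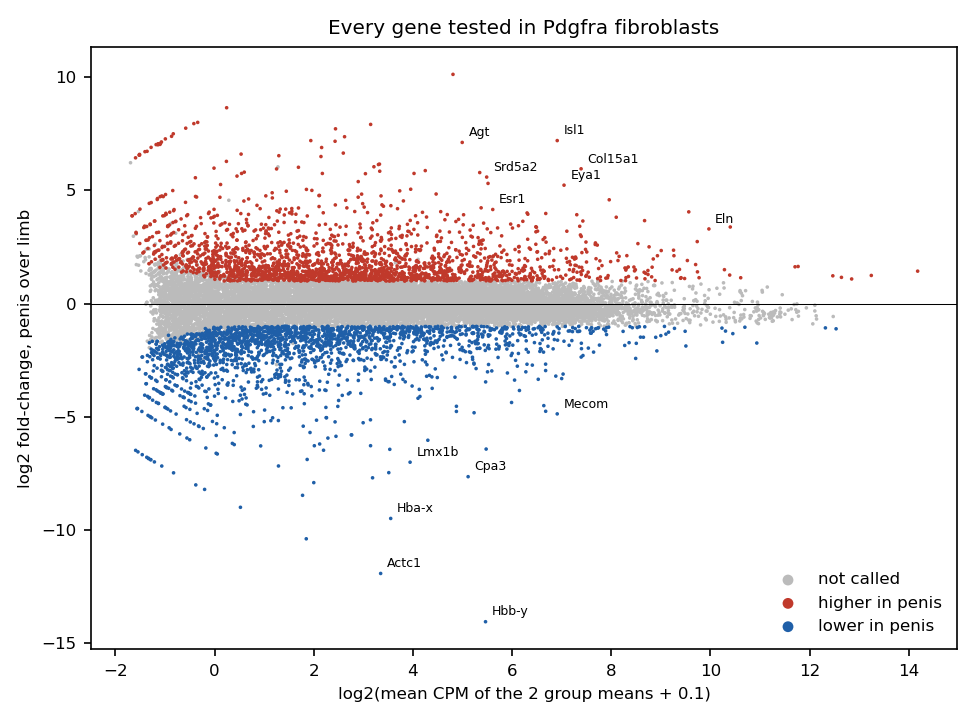
Each point is 1 of the 18497 genes tested, with the mean level of the 2 tissues on the x axis (log2 of CPM + 0.1) and the log2 fold-change of penis over limb members on the y axis. Red points were called higher in the penis (2121) and blue points lower (2057). Both directions span the range of levels, and the furthest points below are globins and a muscle actin.

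The genes furthest above the limb level were led by *Ccl19*, *Isl1*, *Agt*, *Col15a1*, *Sod3*, *Col4a6*, *Angpt4*, *Srd5a2*, *Spp1*, *Eya1*, *Lrrc75b* and *Lbp*. These are the 12 of largest fold-change with at least 20 CPM in the penis. Genes of the rule, mitochondrial genes and symbols that start with Gm or end in Rik were left out. *Isl1*, a LIM homeobox factor of hindlimb and genital progenitors, stood at 236, 238 and 243 CPM in the penis members against 0.30 (forelimb) and 2.93 (hindlimb), a log2 fold-change of 7.20 ± 0.33 (standard error; edgeR adjusted p = 1.4e-07). The penis libraries lay within a few percent of each other, and the hindlimb stood above the forelimb. *Ccl19*, a chemokine of stromal cells that guide lymphocytes, had 58.3, 59.4 and 49.8 CPM against 0.09 in the forelimb and 0 in the hindlimb. Another gene identifier in the files has the symbol *Ccl19*, and these values are those of ENSMUSG00000071005.

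*Col15a1* encodes a basement membrane collagen found around vessels and nerves. It stood at 325, 322 and 345 CPM in the penis and at 5.76 and 4.68 CPM in the limbs, a log2 fold-change of 5.95 ± 0.10 (edgeR adjusted p = 7.0e-10). *Srd5a2*, the enzyme that turns testosterone into dihydrotestosterone, had 89.3, 90.0 and 84.2 CPM against 1.86 and 1.71 (log2 fold-change 5.59 ± 0.10, edgeR adjusted p = 1.1e-09). *Eya1*, a transcriptional coactivator and phosphatase, had 253, 250 and 271 CPM against 6.49 and 6.98. *Agt*, the precursor of angiotensin, had 65.4, 62.3 and 61.8 CPM against 0.48 and 0.41.

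Of the remaining leaders, *Col4a6* (a basement membrane collagen chain) and *Sod3* (extracellular superoxide dismutase) rose by 5.79 and 5.87 on the log2 scale. *Angpt4* (a ligand of the vessel receptor Tie2), *Lrrc75b* and *Lbp* (the lipopolysaccharide-binding protein) rose by 5.75, 5.05 and 4.98. *Lbp* was at 148 CPM in penis endothelial cells, above its 23.6 to 27.8 CPM in the members. *Spp1* (osteopontin) came from few cells: its sum was 113, 78.1 and 76.5 CPM, yet only 3.32 to 4.56% of penis members had a UMI of it. A like share of penis endothelial cells, 2.40 to 4.05%, had a UMI of it, at a sum of 2.92 to 4.82 CPM.

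The leaders on the limb side are described in 2 sets, sorted by hand and not by a fixed rule. The first holds *Lmx1b*, *Irx1*, *Nrgn*, *Mecom* and *Adarb2*. *Lmx1b*, the LIM homeobox factor of dorsal limb mesenchyme, stood at 0.23, 0.19 and 0.31 CPM in the penis and at 26.6 and 34.1 CPM in the limbs (log2 fold-change -6.999 ± 0.19, edgeR adjusted p = 8.1e-09). *Irx1*, an Iroquois homeobox factor, had 0.30, 0.73 and 0.82 CPM against 44.8 and 32.5. *Mecom*, a zinc finger factor, had 9.64, 6.95 and 7.71 CPM against 224 and 241 (log2 fold-change -4.87 ± 0.10, edgeR adjusted p = 2.7e-09). *Adarb2*, of the RNA-editing enzyme family, and *Nrgn*, a calmodulin-binding protein, fell by 4.82 and 5.21 on the log2 scale.

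The other set holds genes of other cell types: *Hbb-y* and *Hba-x* (embryonic globins), *Actc1* (cardiac and fetal muscle actin), *Cpa3*, *Tpsb2* and *Cma1* (mast cell proteases) and *Asb4*. *Hbb-y* stood at 116 CPM in the forelimb, 60.7 in the hindlimb and 0 in every penis library, which against a floor of 3 counts over the penis libraries is at least 2117-fold lower. *Actc1* stood at 24.2 and 16.2 CPM and at 0 in the penis, at least 485-fold lower on the same floor. Endothelial cells of the same limbs (cells with *Cdh5* and with *Pecam1* or *Emcn*, and with no UMI of *Pdgfra*, *Cdh1*, *Sox10*, *Myod1* or *Top2a*) carried *Hbb-y* at 535 CPM, *Actc1* at 16.8, *Cpa3* at 195, *Cma1* at 229, *Tpsb2* at 50.4, *Hba-x* at 111 and *Asb4* at 212. Each of these but *Actc1* was thus at a higher level in endothelial cells than in the fibroblasts, and *Actc1* was near its level there. *Mecom* of the first set was also higher in limb endothelial cells, at 435 and 515 CPM against 224 and 241 in limb members.

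**Figure D2:**
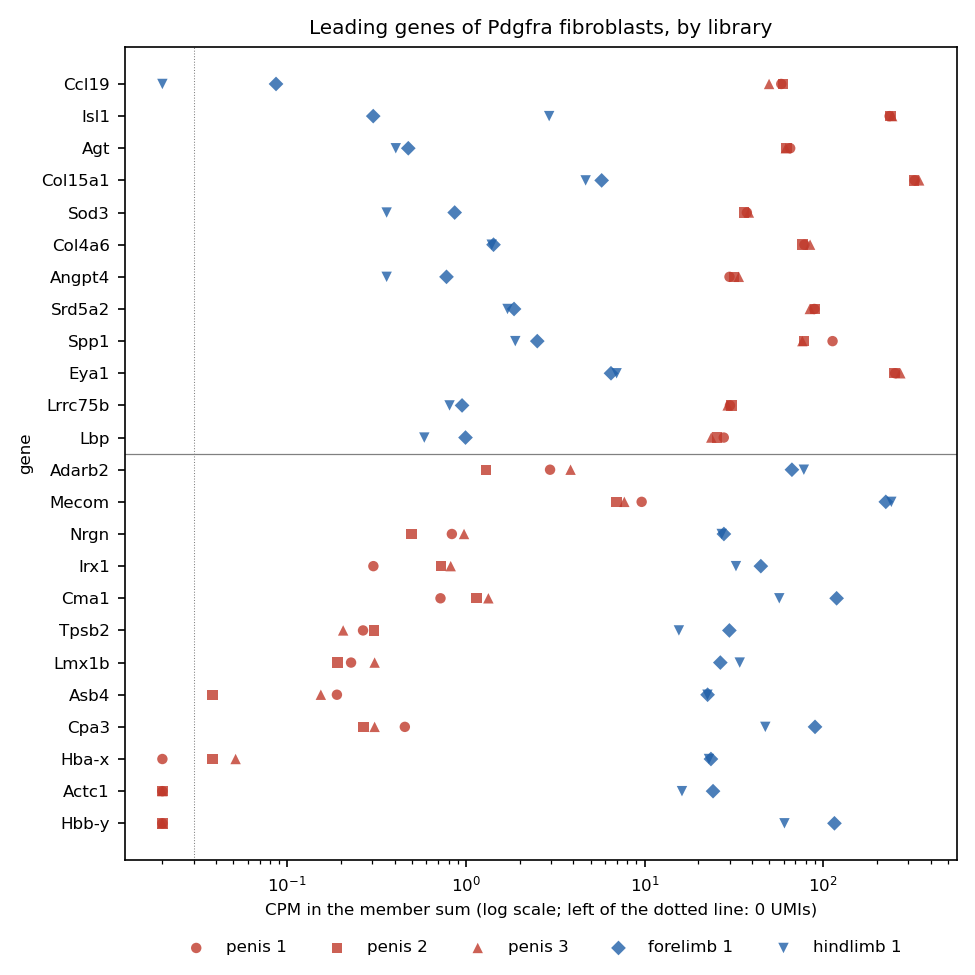
CPM of the 12 leading genes above the limb level (upper rows) and the 12 below it (lower rows) in each library, on a log axis, with red symbols for the 3 penis libraries and blue symbols for the forelimb and hindlimb. Points left of the dotted line have 0 UMIs. The genes were chosen for their fold-change, so the distance between the colours is a description.

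The promoters of 4 of these leaders are shown because their genes lie at the 2 ends of the comparison. Each runs 5′ to 3′ on the gene's strand from 250 bases before to 50 bases after a RefSeq transcription start (GRCm38.p6). Capitals mark TGTTCT or its reverse complement AGAACA, a hexamer that the glucocorticoid receptor and its relatives bind as one arm of a palindrome.

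*Isl1* (chr13:116309639-116309938, minus strand): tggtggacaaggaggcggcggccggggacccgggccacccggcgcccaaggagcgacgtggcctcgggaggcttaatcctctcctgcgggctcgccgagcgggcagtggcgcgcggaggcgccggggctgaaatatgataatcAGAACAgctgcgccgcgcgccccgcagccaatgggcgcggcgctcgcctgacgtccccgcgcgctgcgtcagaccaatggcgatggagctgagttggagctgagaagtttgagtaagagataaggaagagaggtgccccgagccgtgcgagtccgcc

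*Srd5a2* (chr17:74047811-74048110, minus strand): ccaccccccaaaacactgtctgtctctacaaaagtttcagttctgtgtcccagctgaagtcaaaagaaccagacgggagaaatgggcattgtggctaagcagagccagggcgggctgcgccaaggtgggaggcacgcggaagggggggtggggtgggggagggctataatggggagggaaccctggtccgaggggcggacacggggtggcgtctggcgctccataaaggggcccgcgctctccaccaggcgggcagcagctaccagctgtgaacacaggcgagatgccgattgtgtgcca

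*Col15a1* (chr4:47207762-47208061, plus strand): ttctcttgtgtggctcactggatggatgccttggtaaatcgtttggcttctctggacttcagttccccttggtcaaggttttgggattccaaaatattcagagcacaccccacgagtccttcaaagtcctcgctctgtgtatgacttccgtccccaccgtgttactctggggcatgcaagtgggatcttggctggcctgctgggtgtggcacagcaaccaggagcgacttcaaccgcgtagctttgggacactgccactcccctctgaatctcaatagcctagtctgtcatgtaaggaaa

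*Lmx1b* (chr2:33641049-33641348, minus strand): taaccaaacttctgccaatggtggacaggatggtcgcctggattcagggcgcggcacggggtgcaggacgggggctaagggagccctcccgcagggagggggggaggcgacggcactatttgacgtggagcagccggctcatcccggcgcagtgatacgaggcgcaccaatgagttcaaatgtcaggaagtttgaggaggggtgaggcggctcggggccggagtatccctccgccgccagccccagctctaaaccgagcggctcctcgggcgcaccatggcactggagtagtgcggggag

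Of these 4 windows the *Isl1* window holds the hexamer, 107 bases before the start. Promoters were found in the RefSeq table for 8 of the 12 genes that led above and 10 of the 12 that led below the limb level. The hexamer on either strand was present in 1 gene of each set, and in 19% of all 32851 promoters of this length in the table. The full palindrome, AGAACA and TGTTCT with 3 bases between them, was in none of the windows of the leaders and in 3 of the 32851. The TATA box letters TATAAA or TTTATA were in 3 of 9 windows above, in 3 of 12 below and in 13.6% of all promoters. These letters describe the windows alone, since binding was not measured in these libraries.

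Of the 17 *Hox* and limb identity genes in the list examined, 4 were higher in the penis (*Isl1*, *Tbx4*, *Hoxa13* and *Hoxd13*), 1 was lower (*Hoxd9*) and 12 were not called, with a median log2 fold-change of 0.77. Over all genes tested 11.5% were higher and 11.1% lower, the shares to set beside this and each later list. *Tbx4*, the T-box factor of the hindlimb, stood at 140, 136 and 144 CPM in the penis against 4.63 (forelimb) and 33.9 (hindlimb) (log2 fold-change 2.84 ± 0.51, edgeR adjusted p = 8.6e-04). *Hoxa13*, of the distal limb and genital tubercle, had 47.8, 43.8 and 46.8 CPM against 13.3 and 19.5. *Hoxd13* rose by 1.01 on the log2 scale, just past the limit. Without the hindlimb library 9 of the 17 were higher, and none was lower without the forelimb or penis library 3. *Hoxa10* had 68.7 to 72.5 CPM in the penis and 58.2 and 81.5 CPM in the limbs, with the penis between the limbs.

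Several members of this list were in 1 limb and nearly absent from the other. *Tbx5*, the forelimb factor, stood at 54.5, 54.9 and 55.1 CPM in the penis members against 66.0 (forelimb) and 3.96 (hindlimb). *Pitx1*, the hindlimb factor, stood at 59.1, 58.6 and 60.6 CPM in the penis against 0.56 (forelimb) and 86.3 (hindlimb). *Hoxc10* stood at 18.8 to 20.1 CPM in the penis against 0 (forelimb) and 28.1 (hindlimb). None of the 3 was called (edgeR adjusted p = 0.44, 0.68 and 0.65), and the limb libraries lay far apart from each other in each. The penis members thus held the *Tbx5*, *Pitx1* and *Tbx4* RNAs in the same sums. *Tbx5* and *Pitx1* were each at a level closer to the limb that has the RNA than to the limb that lacks it. *Tbx4* was above both limbs.

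Of 37 other patterning factors tested, 16 were higher in the penis, 13 were lower and 8 were not called (median log2 fold-change 0.21). Across settings the median ran from 0.003 without the forelimb library to 0.38 with skeletal and tendon genes excluded, where 9 were lower. The higher ones included *Tbx2*, *Tbx3*, *Msx1*, *Msx2*, *Alx4*, *Shox2*, *Meis1*, *Foxf1*, *Foxf2*, *Foxl2*, *Six2*, *Sim1*, *Osr1* and *Osr2*. The lower ones were *Tbx15*, *Lhx2*, *Lhx9*, *Lmx1b*, *En1*, *Irx3*, *Twist1*, *Twist2*, *Foxc1*, *Foxd1*, *Zic1*, *Tcf15* and *Pax9*. *Lhx2*, of the distal limb bud, had 0.10 to 0.23 CPM in the penis and 10.6 and 10.5 CPM in the limbs (log2 fold-change -5.86 ± 0.22). *Pax9* fell by 5.41 and *Tcf15* by 5.03 on the log2 scale. *Sim1*, a basic helix-loop-helix factor, stood at 127, 127 and 131 CPM against 10.2 and 13.0, and *Msx1* at 159, 151 and 152 against 27.0 and 22.0. *Prrx1*, the general marker of limb mesenchyme, differed by 0.34 ± 0.06 on the log2 scale and was not called.

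Of 16 steroid receptor and enzyme genes, 7 were higher in the penis (among them *Esr1*, *Srd5a2*, *Hsd11b1*, *Hsd11b2*, *Hsd17b11* and *Nr2f1*), 3 were lower (*Pgr*, *Nr3c2* and *Nr2f2*) and 6 were not called (median log2 fold-change 0.52). With cells thinned before the rule was applied, 6 of the 13 tested in this list were higher and 1 was lower (median 0.82). The estrogen receptor *Esr1* had 97.1, 87.3 and 93.1 CPM against 3.98 and 6.21 (log2 fold-change 4.16 ± 0.14). *Hsd11b2*, which inactivates glucocorticoids, had 41.7, 43.5 and 48.3 CPM against 3.20 and 1.98. The glucocorticoid receptor *Nr3c1* had 102, 101 and 107 CPM against 117 and 127 and was not called, and the mineralocorticoid receptor *Nr3c2* fell by 2.13 on the log2 scale. Of 13 genes known to respond to steroids, 3 were higher (*Mt1*, *Mt2* and *Angptl4*, by 1.54, 2.44 and 1.89 on the log2 scale), none was lower and 10 were not called, with *Pde4d* at 0.92 and *Errfi1* at -0.03. Without the hindlimb library, or with cells thinned to 2000 UMIs before the rule was applied, 6 were higher.

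Shares of cells were compared at matched depth. Each member with at least 2000 UMIs was thinned to 2000 by the exact expected share of cells that keep a UMI, which left out 18 to 23 members of a penis library, 147 of the forelimb and 65 of the hindlimb. *Isl1* was then in 36.7 to 37.5% of penis members (83.0 to 86.0% without thinning), 0.04% of forelimb members and 0.53% of hindlimb members. *Srd5a2* was in 13.2 to 14.1% of penis members and in 0.34 and 0.37% of limb members, and *Esr1* in 12.7 to 12.8% against 0.82 and 1.15%. Of the limb genes, *Ebf3* was in 24.2 and 28.7% of limb members and 1.26 to 1.45% of penis members, *Mecom* in 21.3 and 22.1% against 1.13 to 1.30%, and *Ebf2* in 23.7 and 22.4% against 1.14 to 1.29%. *Lmx1b* and *Irx1* were in few limb members, 5.03 and 6.03% and 8.43 and 5.62%. Taking the mean of the limb libraries, *Lmx1b*, *Irx1*, *Nrgn* and *Adarb2* were in 5.53, 7.02, 4.23 and 7.67% of members against 0.178, 0.199, 0.999 and 0.662% of limb endothelial cells, and *Mecom* in 21.7% against 42.6%.

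The shares in endothelial cells are set beside these as a background. Cells with a *Pdgfra* UMI were left out of the endothelial cells, so the background of fibroblast genes in them may be a low estimate. Their median depth was 8211 to 9394 UMIs in the penis libraries against 4632 (forelimb) and 5686 (hindlimb). At 2000 UMIs *Isl1* was in 2.44 to 3.12% of penis endothelial cells, *Srd5a2* in 0.07 to 0.86% and *Eya1* in 2.62 to 5.36%, each below its share of penis members. In CPM, penis endothelial cells held 5.78 to 6.81% of the members' level for *Col1a1*, *Col1a2* and *Col3a1*, 3.63% for *Srd5a2*, 8.09% for *Isl1* and 24.5% for *Esr1*. In limb endothelial cells *Hbb-y* was in 5.51 and 8.66% of cells against 4.33 and 6.88% of members, *Actc1* in 2.73 and 5.23% against 3.23 and 4.62%, *Cpa3* in 3.00% on average against 2.31%, and *Cma1* in 5.51% against 4.03%. The shares of these 4 genes in limb members were near those in limb endothelial cells. So was that of *Ebf3*, at 26.4% of limb members and 25% of limb endothelial cells on average. Shares like these cannot tell whether limb fibroblasts express the genes, which was not tested.

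**Figure D3:**
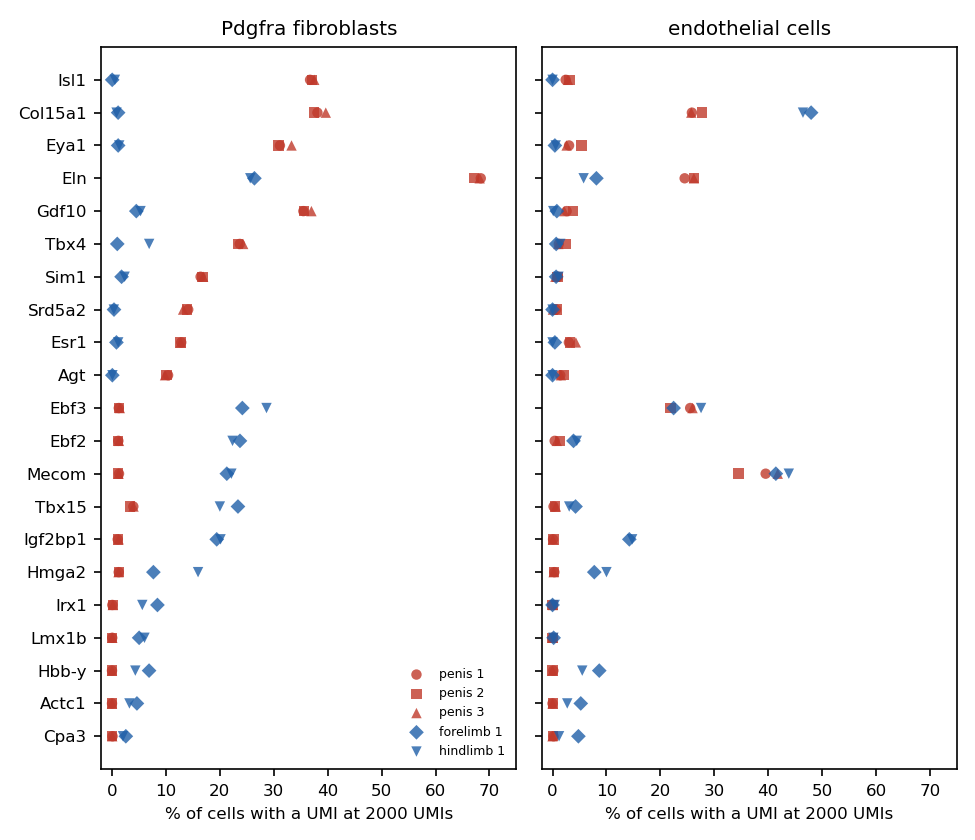
Percent of Pdgfra fibroblasts (left) and endothelial cells (right) of each library that keep at least 1 UMI of a gene when every cell is thinned to 2000 UMIs. *Isl1* reaches 36.7 to 37.5% of penis members and 2.44 to 3.12% of penis endothelial cells, while *Hbb-y*, *Actc1* and *Cpa3* have like shares in limb members and limb endothelial cells.

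Of 22 elastic fibre and crosslinking genes, 12 were higher in the penis, 1 was lower and 9 were not called, with a median log2 fold-change of 1.15. Elastin, *Eln*, stood at 1836, 1827 and 1811 CPM in the penis and at 196 and 168 CPM in the limbs (log2 fold-change 3.30 ± 0.09, edgeR adjusted p = 8.1e-09), and was in 67.1 to 68.4% of penis and 26.4 and 25.6% of limb members at 2000 UMIs. *Ltbp2* and *Ltbp4*, latent TGF-beta binding proteins of the microfibril, rose by 3.98 and 2.72 on the log2 scale, and the microfibril protein *Mfap5* by 2.36. *Fbn2*, the fetal fibrillin, had 870, 861 and 937 CPM against 803 and 817 and was not called, as was *Mfap2* at 0.65 on the log2 scale.

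Of 10 small leucine-rich proteoglycans tested, 7 were higher, none was lower and 3 were not called (median log2 fold-change 1.39). *Dcn* and *Lum* belong to the rule and are not counted. *Bgn* (biglycan) had 1020, 985 and 1008 CPM against 239 and 215, and *Fmod* (fibromodulin) rose by 2.79, *Omd* by 2.22 and *Podn* by 1.66 on the log2 scale. *Kera* (keratocan) differed by -0.53 and *Aspn* by 0.20, and neither was called. Of 25 collagen genes, 8 were higher, 1 was lower and 16 were not called (median 0.45). The fibril collagens *Col1a1*, *Col1a2* and *Col3a1* rose by 1.16, 1.23 and 1.09 on the log2 scale, just past the limit. *Col4a5* had 149, 160 and 181 CPM against 13.9 and 16.5, and *Col14a1*, a fibril-associated collagen, 965, 1015 and 989 CPM against 419 and 261. *Col6a1* differed by 0.22 ± 0.09 and *Col5a2* by 0.61 ± 0.07. Of 27 adhesive matrix and protease genes, 11 were higher, 3 lower and 13 not called (median 0.90), with *Sparcl1*, *Gsn*, *Mmp2* and *Mmp23* up by 2.61, 2.51, 2.09 and 2.01 and *Fn1* at -0.85, not called.

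Of 21 fetal growth and timing genes tested, 15 were lower in the penis, none was higher and 6 were not called, with a median log2 fold-change of -1.49. With cells thinned to 2000 UMIs before the rule was applied, 10 of 19 tested were lower (median -1.12). With no gene excluded, 16 of 21 were lower (median -1.44). *Igf2bp1*, an RNA-binding protein of embryonic growth, stood at 5.77, 6.03 and 6.22 CPM in the penis and at 120 and 122 CPM in the limbs (log2 fold-change -4.36 ± 0.07, edgeR adjusted p = 7.0e-10). *Igf2bp3* had 15.2 to 18.1 CPM against 153 and 182. *Hmga2*, a chromatin protein of embryonic cells, had 6.91 to 8.07 CPM against 45.6 in the forelimb and 116 in the hindlimb, so the limbs differed from each other. The imprinted genes *Igf2*, *H19* and *Dlk1* fell by 1.09, 1.22 and 1.08, and *Meg3* and *Peg3* differed by -0.76 and -0.73 and were not called.

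Among 20 cell division genes, *Top2a* aside, 10 were lower in the penis, 1 was higher and 9 were not called (median log2 fold-change -1.07). *Birc5* had 3.49, 4.81 and 4.68 CPM against 42.8 and 38.2, and *Ube2c*, *Cdk1* and the replication factor *Mcm5* fell by 2.54, 2.17 and 1.91 on the log2 scale. The rule takes out cells with a *Top2a* UMI, and penis members were deeper than limb members. Whether dividing cells were taken out alike in the tissues was not tested. With no gene excluded, 12 of the 20 were lower, none was higher, and the median was -1.25. When cells were gated after thinning to 2000 UMIs and all of their UMIs were then summed, 11 were lower, none was higher, and the median was -1.27. The cyclins *Ccnd2* and *Ccnd3* differed by -0.17 and -0.28 and were not called.

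**Figure D4:**
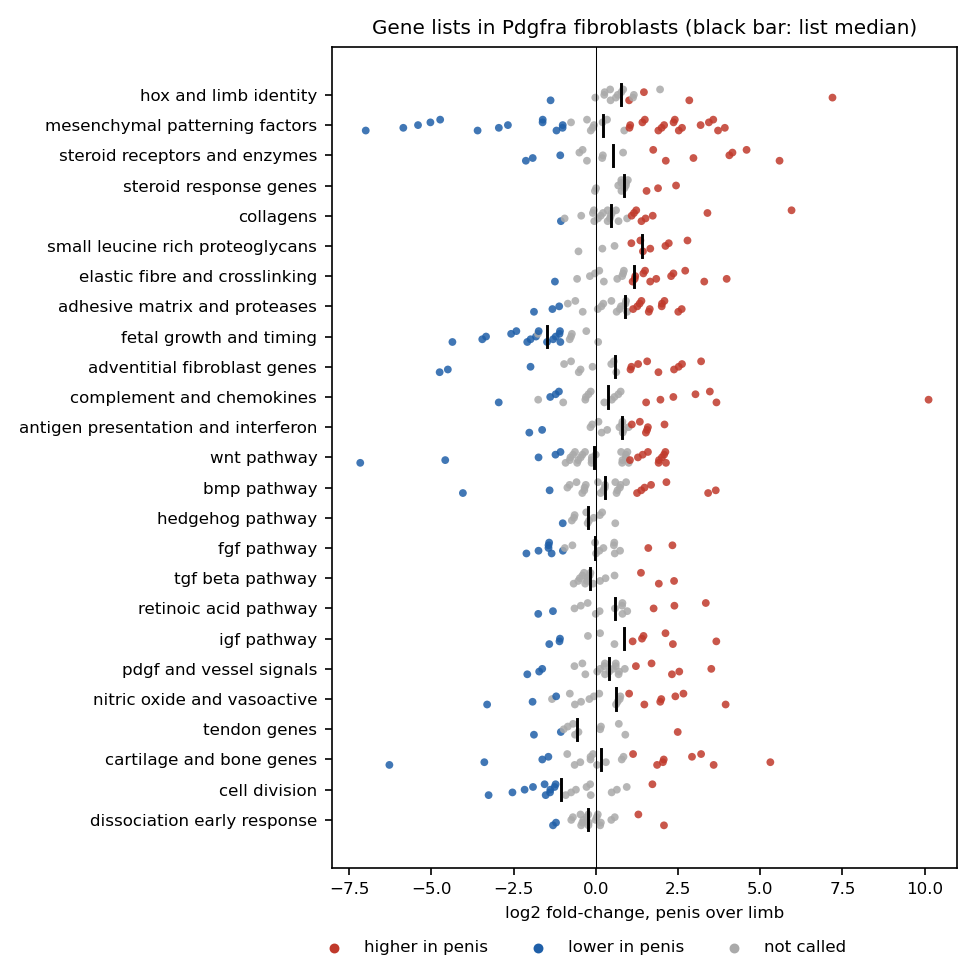
Log2 fold-change of penis over limb members for the tested genes of each list (x axis), 1 row per list, coloured by call, with the list's median as a black bar. The proteoglycan and elastic fibre medians lie at 1.39 and 1.15, and the fetal growth and cell division medians at -1.49 and -1.07, beside 0.02 for all genes.

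Fibroblast subtypes of adult connective tissue are told apart by adventitial genes such as *Pi16* and *Ly6a*. Of 20 such genes, 9 were higher in the penis, 3 were lower and 8 were not called (median log2 fold-change 0.58). Across settings the median ran from 0.43 without the hindlimb library to 1.19 with more genes of other types excluded. *Pi16*, a peptidase inhibitor, had 70.2, 73.5 and 64.1 CPM against 13.9 and 8.10, and *Ly6a* 170, 147 and 178 CPM against 21.7 and 13.4. *Clec3b* had 152, 135 and 146 CPM against 149 in the forelimb and 54.5 in the hindlimb and was not called. The early B cell factors split: *Ebf2* and *Ebf3* fell by 4.50 and 4.75 on the log2 scale, whereas *Ebf1* differed by -0.10 ± 0.08.

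Of 22 complement and chemokine genes tested, 7 were higher, 4 lower and 11 not called (median 0.37), with *C1ra*, *C4b* and *C1s1* up by 3.67, 3.47 and 3.03 beside *Ccl19*. With cells thinned before the rule was applied, 8 of 16 tested were higher and 2 lower (median 0.98). The median was 0.25 with skeletal and tendon genes excluded. *Cxcl12* and *Cxcl14* differed by 0.76 and -0.30 and were not called. Of 19 antigen presentation and interferon genes, 6 were higher, 2 lower and 11 not called (median 0.81), while 10 were higher without the forelimb library and 2 of 12 tested when cells were thinned before the rule was applied. *Bst2* fell by 1.63, and it was at 231 and 264 CPM in penis and limb endothelial cells against 9.11 to 37.4 CPM in the members.

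In the Wnt list 10 of 36 were higher, 5 lower and 21 not called (median -0.06). The secreted antagonists went both ways: *Sfrp2* had 832, 767 and 791 CPM against 83.6 and 278, *Dkk1* fell by 4.58 on the log2 scale, *Sfrp5* was called lower at 0 to 0.08 CPM against 4.24 and 5.09, and *Dkk2* differed by -0.13. In the BMP list 7 of 27 were higher, 2 lower and 18 not called (median 0.28), with 5 lower when more genes of other types, or skeletal and tendon genes, were excluded and 4 when cells were gated at 2000 UMIs or needed 2 UMIs of the markers. *Bmper*, a secreted BMP modulator, had 320, 298 and 341 CPM against 26.1 and 23.8, and *Gdf10* 291, 298 and 317 CPM against 26.5 and 28.9. *Gdf5*, of joints, fell by 4.04. In the hedgehog list 1 of 11 was lower (*Gli3*, by 1.01, a call lost in 10 of the alternative settings) and 10 were not called (median -0.25). That is 9.09% lower, near the 11.1% of all genes tested. In the FGF list 2 of 19 were higher, 7 lower and 10 not called (median -0.02), with the ligand *Fgf9* up by 2.33 and the target *Etv5* down by 1.74. These are 10.5% higher and 36.8% lower, beside 11.5 and 11.1% of all genes tested. In the TGF-beta list 3 of 17 were higher (among them *Tgfb3* and *Ccn2*, by 1.37 and 2.38), none was lower and 14 were not called (median -0.19). In the retinoic acid list 3 of 15 were higher, 2 lower and 10 not called (median 0.58). These are 20 and 13.3%, the lower share near that of all genes. With cells gated at 2000 UMIs or 2 UMIs of the markers required, 5 were higher. The median was 0.09 with cells thinned before the rule was applied. *Aldh1a3* and *Aldh1a1*, which make retinoic acid, rose by 2.39 and 3.34, and the binding protein *Crabp1* fell by 1.75.

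Of 12 IGF pathway genes, 6 were higher, 3 lower and 3 not called (median 0.84). With cells thinned to 2000 UMIs before the rule was applied, or gated at that depth and all UMIs summed, 1 was lower. The binding protein *Igfbp7* had 797, 722 and 754 CPM against 64.3 and 52.8, *Igfbp2* 902, 857 and 831 against 127 and 207, and *Igfbp3* 520, 500 and 540 against 128 and 107. *Igfbp7* was higher in endothelial cells than in members of either tissue, at 1356 to 1436 CPM in the penis and 558 and 445 CPM in the limbs. *Igfbp5* and the receptor *Igf1r* differed by 0.13 and -0.24. Among vessel signals, *Angpt2*, a Tie2 ligand of remodelling vessels, stood at 114, 121 and 112 CPM against 9.78 and 10.1, and *Pdgfd* rose by 2.31. That list had 5 of 23 higher, 3 lower and 15 not called (median 0.41). Of 21 nitric oxide and vasoactive genes, 7 were higher, 3 lower and 11 not called (median 0.61). The phosphodiesterase *Pde1a* had 147, 144 and 158 CPM against 8.35 and 10.7, the peptide *Edn3* (endothelin 3) rose by 2.66 and the prostacyclin synthase *Ptgis* by 2.42. The angiotensin receptor *Agtr2* went the other way, at 25.6, 23.1 and 23.03 CPM against 272 and 193 (log2 fold-change -3.31 ± 0.13).

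Of 12 tendon genes, 1 was higher (*Cilp*, by 2.49), 2 were lower (*Tnmd* by 1.88 and *Egr2* by 1.06) and 9 were not called (median -0.58). These are 8.33 and 16.7% of the list, near the 11.5 and 11.1% of all genes tested. With no gene excluded, or with 2 UMIs of the markers required, 4 were lower, and *Egr2* lost its call in 2 settings. Of 22 cartilage and bone genes, 8 were higher, 4 lower and 10 not called (median 0.17). The balance depended on the setting: with no gene excluded 6 were higher and 10 lower (median -0.90), and with skeletal and tendon genes also excluded 5 of 18 tested were higher and 7 lower (median -0.69). With more genes of other types excluded 6 of 20 were higher and 7 lower (median -0.28), and with cells thinned to 2000 UMIs before the rule was applied 5 of 18 were higher and 4 lower (median -0.28). *Sox9* had 86.5, 81.8 and 89.5 CPM against 43.6 and 54.0, *Sox5* differed by 0.04, and *Mia* fell by 3.39. *Hapln1*, a cartilage link protein, rose by 2.04, and with no gene excluded from the rule it stood at -0.011. The rule removed more *Col2a1* cells from the limbs, as given above.

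RNA of other cell types was measured in the same sums. The 10 skeletal muscle markers summed to 9.97 to 11.9 CPM in penis members against 139 (forelimb) and 87.1 (hindlimb), and 9 of them were lower. The 10 red blood cell genes summed to 5263 to 5593 CPM against 10289 and 10212, with *Hbb-y* at 0 in the penis. The 9 white blood cell genes summed to 38.5, 107 and 33.7 CPM in the penis and to 111 and 79.8 CPM in the limbs, so penis library 2 stood apart, and 1 of the 9 was lower with it and 7 without it. Keratinocyte genes summed to 162 to 231 CPM against 91.0 and 80.5 (4 of 10 higher), smooth muscle and pericyte genes to 280 to 370 against 148 and 132 (5 of 10 higher), endothelial genes to 76.5 to 85.5 against 170 and 160, glial genes to 16.4 to 19.8 against 8.87 and 8.96, and chondrocyte genes to 80.3 to 99.2 against 88.9 and 110. The part of these cells in the results was not tested. When cells with a UMI of 12 further genes of other types were also left out, 1736 genes were higher and 1548 lower, of which 1539 and 1326 were called before. No doublet caller was run.

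The members were also set beside the endothelial cells (1005 in the penis and 360 in the limbs) with the library as a block. Of 17665 genes tested, the penis minus limb difference was larger (more positive) in fibroblasts for 285 genes (1.61%) and smaller (more negative) for 485 (2.75%). Larger and smaller go by sign here and not by size, so a smaller difference can be a deeper fall in fibroblasts. The larger ones numbered 152 without the forelimb and 109 without the hindlimb library. With all other cells in place of endothelial cells, 37 of the 285 and 185 of the 485 were called again. *Col15a1* led: in endothelial cells it stood at 235, 224 and 196 CPM in the penis and 369 and 427 CPM in the limbs. Limb fibroblasts held it at a low level, 5.76 and 4.68 CPM. The differences of the 2 cell types were 6.80 ± 0.16 apart on the log2 scale (edgeR adjusted p = 1.1e-09). *Mecom* and *Ebf3* were the converse. *Mecom* had 321 to 406 CPM in penis and 435 and 515 CPM in limb endothelial cells. *Ebf3* had 132 to 160 and 147 and 183 CPM there. Both were thus found in the endothelial sums of either tissue and in the member sums of the limb.

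*Igf2* had 388, 414 and 404 CPM in penis members against 935 and 742 in limb members, but 54.2 to 65.8 CPM in penis endothelial cells against 992 and 964 in limb endothelial cells, an interaction of 2.96. *H19* and *Dlk1* had interactions of 2.68 and 2.13. Of the 22 genes in the fetal growth and timing list, 5 had a larger difference in fibroblasts by sign. In 2 it was smaller by sign, *Igf2bp3* (-2.12) and *Hmga1* (-2.95). Over all genes tested these shares were 1.61 and 2.75%. *Sim1*, at 4.38 to 5.72 CPM in penis and 3.46 and 10.3 CPM in limb endothelial cells, had an interaction of 3.78.

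**Figure D5:**
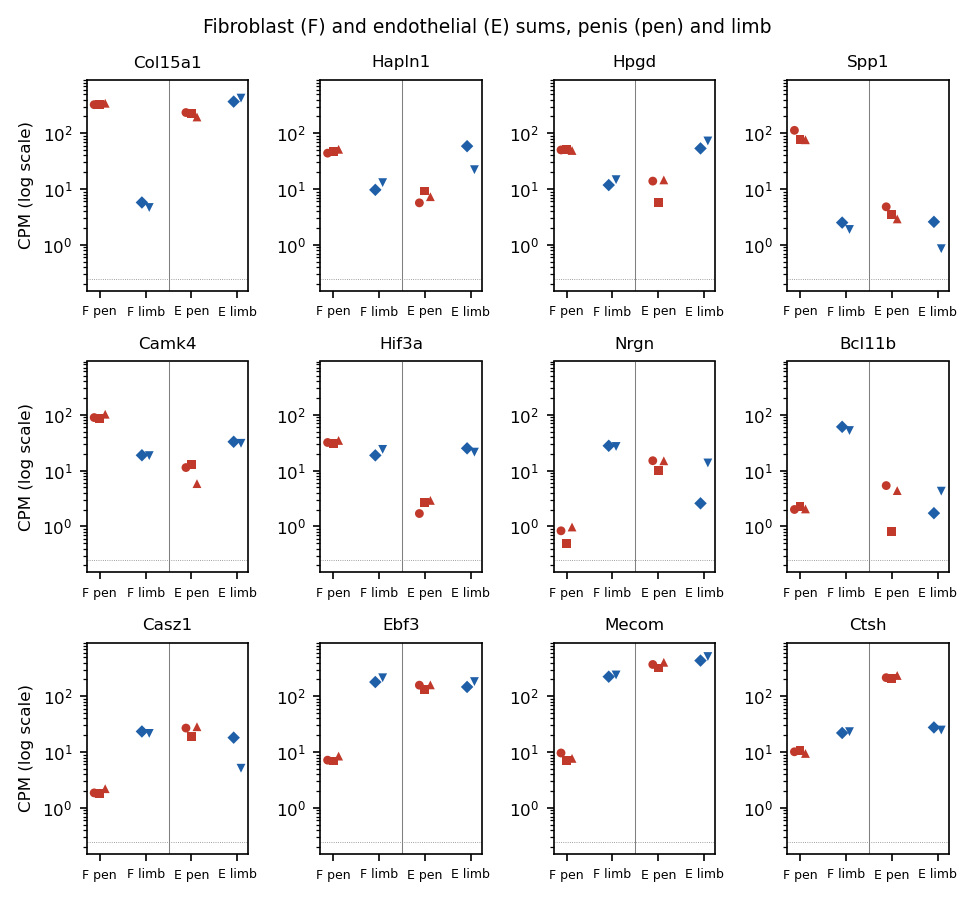
CPM on a log axis for the 12 genes with the largest interactions, in Pdgfra fibroblasts (F) and endothelial cells (E) of the 3 penis (red) and 2 limb (blue) libraries. *Col15a1* is low only in limb fibroblasts, at 5.76 and 4.68 CPM, and *Mecom* and *Ebf3* are low only in penis fibroblasts, at 6.91 to 9.64 CPM.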

How the data were processed

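The authors dissociated the tissues, made 10X Genomics 3′ v3.1 libraries and used Cell Ranger 7.0.0 with mm10 to count UMIs. What they deposited are whole-number counts of UMIs, not normalized, for every gene in every barcode. Whether introns were counted is not given in the sources used here. The limits of the study's methods were read as genes per cell. The upper limit of 9000 was used for both limbs, where the methods give the hindlimb a higher one. The methods' limit of 0.8 on log10 genes per UMI was applied only as an alternative setting. Labels do not name the mouse of a penis library, so p-values measure the spread between these libraries. The forelimb and hindlimb libraries are not replicates of the same condition, so the spread of the limb group includes the difference between limbs. Whether these libraries share embryos is not given.

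Counts were summed per library over the members and compared with edgeR 4.0.16 (limma 3.58.1, R 4.3.3): filterByExpr, TMM normalization, quasi-likelihood test, Benjamini-Hochberg adjustment. The genes of the rule were left out of all counts. CPM scale these counts to 1000000 member UMIs. Each standard error is the log2 fold-change divided by the square root of F. Folds against a group at 0 use 3 counts over the group. Tested on simulated data for the members' comparison, edgeR and DESeq2 1.42.0 recovered the planted changes, which were large and in well counted genes. Both limbs were drawn alike there. Changes near the limit, low counts and unlike limb libraries were thus not covered. Shares and plots used Python 3.11.15, and coordinates GENCODE and RefSeq models of GRCm38.

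The members and the gene lists were chosen with earlier results of these data known. Named genes were the 12 called genes furthest each way with 20 CPM or more, the 4 largest called and 2 most abundant uncalled of each of 33 lists, and 6 interactions each way. The leaders and interactions leave out genes of the rule, mitochondrial genes and symbols that start with Gm or end in Rik. *Tbx5*, *Pitx1*, *Hoxc10*, *Hoxd13*, *Msx1*, *Sim1*, *Sox9*, *Col1a1*, *Col1a2*, *Col3a1*, *Igf2*, *H19*, *Dlk1* and *Nr3c2* were added after their values were seen. Results for some genes are not reported here.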

Additional observations from a re-analysis of the deposited data

Results flagged for a closer look

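The penis minus limb difference differed between fibroblasts and endothelial cells of the same libraries, by the interaction test of edgeR, for the 12 genes that follow. Larger in fibroblasts by sign, and not always by size, were *Col15a1* (6.80 on the log2 scale), *Hapln1* (4.46), *Hpgd* (4.38), *Spp1* (4.16), *Camk4* (3.87) and *Hif3a* (3.82). Members were filtered on *Col2a1* and endothelial cells were not, which bears on the cartilage gene *Hapln1*. Its fold-change in members was -0.011 on the log2 scale with no gene excluded, and its interaction was not recomputed in that setting. *Hpgd*, which breaks down prostaglandins, stood at 49.1 to 51.4 CPM in penis members and 11.8 and 14.8 CPM in limb members, and in endothelial cells at 5.72 to 14.6 and at 53.6 and 72.8 CPM. *Hif3a*, a hypoxia-inducible factor subunit, stood at 31.0 to 34.7 CPM in penis members against 18.7 and 24.0 CPM in limb members, and was lower in penis than limb endothelial cells (1.70 to 2.92 against 25.1 and 21.4 CPM). With all other filtered cells in place of endothelial cells, *Hpgd*, *Camk4* and *Hif3a* fell to 0.72, 0.71 and 0.15 and were not called. *Spp1* was not called without penis library 1 or 3 or either limb library (3.30 to 4.50).

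Smaller by sign, which can be a deeper fall in fibroblasts, were *Nrgn* (-5.92), *Bcl11b* (-4.95), *Casz1* (-4.66), *Ebf3* (-4.62), *Mecom* (-4.51) and *Ctsh* (-4.27). *Ctsh*, a lysosomal cathepsin, stood at 9.46 to 10.7 CPM in penis and 22.0 and 23.2 CPM in limb members, and at 210 to 236 CPM in penis and 27.7 and 24.8 CPM in limb endothelial cells. *Bcl11b*, a zinc finger factor, stood at 2.01 to 2.29 CPM in penis and 60.8 and 52.2 CPM in limb members, with 0.82 to 5.39 CPM in endothelial cells, and was not called without the forelimb library (-4.41). *Casz1* and *Nrgn* rested on 5.14 to 28.5 and 2.59 to 15.0 CPM in endothelial cells.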

How the results depend on the processing

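Thinning every cell to 2000 UMIs before both the gate and the sums left 12323 genes tested and gave 1244 higher and 899 lower genes, of which 1064 and 752 were also called at full depth. Gating at that depth and then summing all UMIs, an alternative chosen after seeing the data, gave 1811 and 1757. The other planned settings gave 1736 to 2330 higher and 1548 to 2484 lower genes, DESeq2 among them with 1931 and 1869. Leaving out 1 library gave 1976 to 2091 higher and 1837 to 1966 lower genes. The interaction counts were 109 to 356 larger and 350 to 557 smaller when 1 library was left out. The counts of larger interactions were 152 without the forelimb and 109 without the hindlimb, and all other cells in place of endothelial cells gave 329 and 720, of which 37 and 185 were shared. The cause was not tested.

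Of 3243 log2 fold-changes recomputed for named genes, 3062 kept their direction and call, 65 lost the call, 51 gained it and 61 uncalled values changed sign. Called values changed sign in 4: with no gene excluded *Hapln1* stood at -0.011, *Cdh19* at -0.36 and *Col9a1* at -0.93, and *Cdh19* at -1.14 when gated at 2000 UMIs. *Gli3* and *Acta2* each lost the call in 10 settings. Leaving a limb with 1 library assumes that it varies like the penis group. Shares of cells moved with the depth of thinning, as for *Isl1*, in 37.1% of penis members at 2000 UMIs and 21.1% at 1000. No paired analysis of penis and limb was possible because P6 penises and E15 limbs come from different animals.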
